A study of Mus musculus with 12 samples.

Results

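The 7 genes that osteoclasts are known for were followed through mouse spleen and axillary lymph node: the cytokine Tnfsf11, its receptor Tnfrsf11a, the transcription factor Nfatc1, the integrin subunit Itgb3, the proton pump subunit Atp6v0d2 and the secreted enzymes Acp5 and Ctsk. They are 7 of the 23284 genes in the deposited count tables and were found there by symbol. They were picked because Ctsk was already known to stand among the genes most different between the lymph nodes of the 2 genotypes, so the lymph node genotype difference of these 7 genes is given below as a description, without p-values; where members past a threshold are counted in it, nothing is read from the count.

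Osteoclasts are the cells that dissolve bone, and they form by fusion of precursors of the monocyte and macrophage line. Tnfsf11 (RANKL), made by stromal cells, osteocytes and activated T cells, binds Tnfrsf11a (RANK) on the precursor, and signalling through NF-kappaB, AP-1 and calcium leads to Nfatc1, which drives genes of the resorbing cell such as Acp5, Ctsk, Itgb3 and Atp6v0d2. Several of these genes are also used outside bone: Tnfsf11 and Tnfrsf11a take part in lymph node development and dendritic cell survival, Acp5 is made by red pulp and other tissue macrophages, and Itgb3 by platelets.

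RNA had been sequenced from 12 libraries, 3 in each of 4 groups, from mice at 30 weeks of age on normal laboratory chow. The DKO mice lack both apoE and apoA-I, and the DKO/hA-I mice carry the same 2 deletions and overexpress human apoA-I; the labels do not give the promoter of the human gene, the sex or the background strain. A mouse without either deletion is therefore not among the groups. Sample codes differ between the tissues, so spleens and nodes came from different animals as labelled, and in a comparison of tissues the tissue, the animal and the collection cannot be told apart. The middle number of the code is the same in all 3 DKO nodes and different in each DKO/hA-I node; the labels do not say what it stands for, and in the nodes it cannot be told apart from genotype. Total counts ranged from 5911835 (DKO node replicate 2) to 11950825 (DKO node replicate 3), and 3 counts, the smallest total taken here as detected, were worth 0.258 to 0.506 CPM (counts scaled to the size of the library). Megakaryocyte and platelet markers, plentiful in mouse spleen, summed to 221 to 424 CPM in the spleens and to 26.7 to 73.4 CPM in the nodes. The node labelled DKO replicate 2 had the fewest reads and stood apart from DKO replicates 1 and 3 in much of what follows, so its values are given separately.

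The 5′ flanks of Ctsk and Acp5 are shown because these are the secreted enzymes the results turn on: Ctsk was one of the 2 members with the large node difference and Acp5 was not. Both are the 250 bases before a RefSeq transcription start, on build GRCm38.p6, with capitals on each match to one of the motifs searched on both strands. The motifs were GGAAA (the core bound by NFAT), GAGGAA (a core bound by PU.1), TGANTCA (AP-1), CACGTG (an E-box) and TCATGTG (an M-box bound by MITF and TFE3). GAGGAA followed by an A would also hold GGAAA; neither match in the Ctsk flank does.
Ctsk, chr3:95498960-95499209, plus strand: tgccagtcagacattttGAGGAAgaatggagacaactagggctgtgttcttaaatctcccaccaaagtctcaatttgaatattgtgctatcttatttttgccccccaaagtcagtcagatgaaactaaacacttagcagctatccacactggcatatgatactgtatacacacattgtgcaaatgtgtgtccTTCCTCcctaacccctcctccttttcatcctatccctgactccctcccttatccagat
Acp5 (the third listed start), chr9:22130599-22130848, minus strand: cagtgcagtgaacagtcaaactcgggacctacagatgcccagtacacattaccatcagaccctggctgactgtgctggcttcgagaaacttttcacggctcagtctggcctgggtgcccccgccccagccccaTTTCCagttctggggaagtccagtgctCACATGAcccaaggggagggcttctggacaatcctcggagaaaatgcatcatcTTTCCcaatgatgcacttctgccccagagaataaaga
In the Ctsk flank, GAGGAA was found 2 times, 233 and 58 bases before the start, the second time on the opposite strand, and none of the other motifs was found. In the flank of the third Acp5 start, GGAAA was found 117 and 37 bases and TCATGTG 90 bases before the start, all on the opposite strand. RefSeq lists 3 Acp5 starts, and gene counts do not tell which of them was used. The third, shown here, held the most matches. The flanks of the first and second starts held 1 GGAAA each and none of the other motifs, TCATGTG included. Of 32851 flanks of the same length, 55.6% held GGAAA, 23.3% GAGGAA and 3.25% TCATGTG. The flank of Tnfsf11 held 1 GGAAA and that of Tnfrsf11a none of the motifs. Flanks of 4 of the 7 members were searched, and those of Nfatc1, Itgb3 and Atp6v0d2 were not. A match of letters is not evidence that a factor binds there.

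In the nodes labelled DKO, Ctsk and Atp6v0d2 were an order of magnitude above the DKO/hA-I nodes, Acp5 was less than 2-fold above, and Nfatc1 was at the same level within the spread. Tnfsf11 was 1.26-fold higher and Tnfrsf11a and Itgb3 varied among the DKO nodes more than between the groups. Replicates 1 and 3 carried most of the difference and replicate 2 a smaller part of it. In the spleen none of the 7 passed the test between genotypes.

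**Figure D1:**
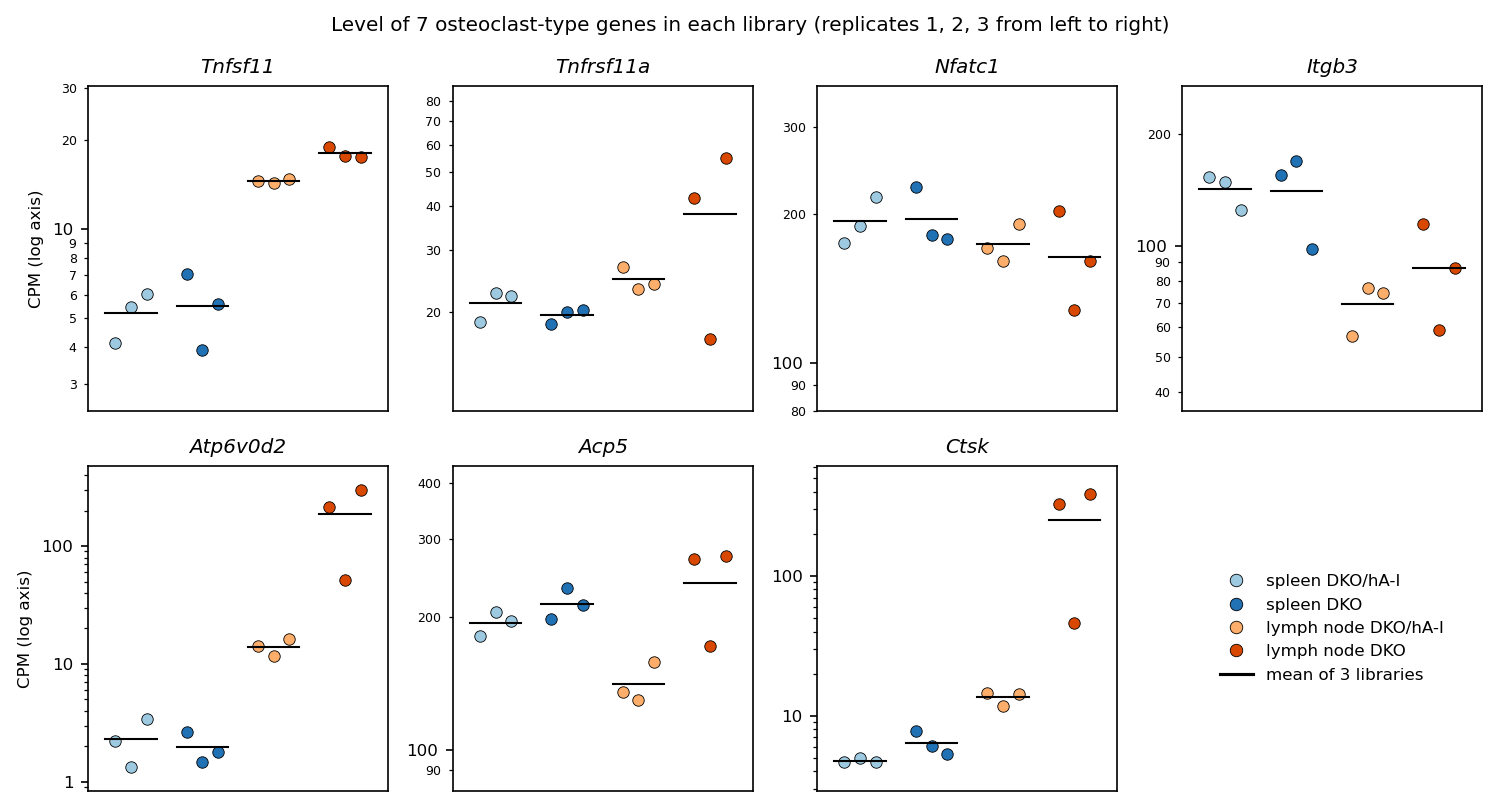
CPM of each of the 7 genes in each of the 12 libraries on a log axis, by group, with replicates 1 to 3 from left to right and a bar at the mean of the 3 libraries. Ctsk and Atp6v0d2 are highest in DKO nodes 1 and 3 (329 and 382 CPM for Ctsk) and lower in DKO node 2 (45.7 CPM), while Nfatc1 lies between 128 and 227 CPM in all 12 libraries.

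Tnfsf11 (chromosome 14, 78277445 to 78308043 on the minus strand, GRCm38) encodes the ligand that starts osteoclast formation. Its level was 19.0, 17.7 and 17.55 CPM in DKO nodes 1, 2 and 3 and 14.5, 14.4 and 14.7 CPM in the DKO/hA-I nodes. The groups did not overlap, but the gap was small: the fitted log2 difference was 0.33 ± 0.141 (SE), or 1.26-fold. It was the one member for which DKO node 2 was not the lowest of the DKO nodes. In spleen it was 7.06, 3.91 and 5.60 CPM in DKO and 4.15, 5.48 and 6.03 CPM in DKO/hA-I. These overlapped (log2 difference 0.07, 95% interval -0.51 to 0.65, edgeR adjusted p = 0.978).

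Tnfrsf11a (chromosome 1, 105780718 to 105847981, plus strand) encodes the receptor on the precursor. DKO nodes held 42.4, 16.7 and 55.1 CPM and DKO/hA-I nodes 26.9, 23.3 and 24.0 CPM. DKO node 2 was thus the lowest of the 6 nodes and DKO nodes 1 and 3 the highest, and the groups overlapped (log2 difference 0.65 ± 0.368). In DKO spleens it was 18.4, 20.0 and 20.3 CPM and in DKO/hA-I spleens 18.7, 22.7 and 22.2 CPM, with a log2 difference of -0.12 (95% interval -0.42 to 0.17, edgeR adjusted p = 0.929).

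Nfatc1, the transcription factor regarded as the master regulator of osteoclast formation and also active in lymphocytes, was abundant everywhere. DKO nodes held 203, 128 and 160 CPM and DKO/hA-I nodes 170, 161 and 191 CPM. The groups overlapped, with DKO node 1 the highest and DKO node 2 the lowest of the 6, and the log2 difference was -0.07 ± 0.179 with an interval of -0.49 to 0.34. Without DKO node 2 the difference was 0.07, on the other side of 0. In spleen, DKO libraries held 227, 182 and 178 CPM and DKO/hA-I libraries 175, 189 and 217 CPM (log2 difference 0.01, 95% interval -0.29 to 0.30, edgeR adjusted p = 0.994).

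Itgb3 (chromosome 11, 104608000 to 104670476, plus strand) encodes the beta chain of the alpha-v beta-3 integrin, with which osteoclasts hold on to bone. The DKO nodes had 115, 59.2 and 87.2 CPM and the DKO/hA-I nodes 57.0, 76.7 and 74.4 CPM. DKO node 2 lay within the range of the DKO/hA-I nodes, and the groups overlapped (log2 difference 0.34 ± 0.241). Spleens held 155, 169 and 97.9 CPM in DKO and 154, 148 and 125 CPM in DKO/hA-I, a log2 difference of -0.02 (95% interval -0.45 to 0.40, edgeR adjusted p = 0.989).

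Atp6v0d2 (chromosome 4, 19876841 to 19922605, minus strand) encodes the d2 subunit of the membrane part of the proton pump and is needed for efficient fusion of mouse osteoclast precursors. It was 216, 51.2 and 299 CPM in DKO nodes 1, 2 and 3 and 14.1, 11.7 and 16.2 CPM in the DKO/hA-I nodes. All 3 DKO nodes were above all 3 DKO/hA-I nodes. Relative to the mean of the DKO/hA-I nodes, DKO nodes 1 and 3 were 15.4- and 21.4-fold higher and DKO node 2 was 3.66-fold higher, and the fitted log2 difference was 3.77 ± 0.593 (13.6-fold). Spleens held little of it, 2.65, 1.47 and 1.80 CPM in DKO and 2.21, 1.345 and 3.445 CPM in DKO/hA-I, with overlapping groups (log2 difference -0.27, 95% interval -1.12 to 0.58, edgeR adjusted p = 0.94).

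Acp5 (chromosome 9, 22126727 to 22135711, minus strand) encodes tartrate-resistant acid phosphatase (TRAP), the enzyme stained to find osteoclasts. DKO nodes had 270, 172 and 274 CPM and DKO/hA-I nodes 135, 129 and 158 CPM. The groups did not overlap, DKO node 2 being the nearest to the DKO/hA-I nodes, and the log2 difference was 0.77 ± 0.198 (1.71-fold). In spleen the levels were 197, 232 and 212 CPM in DKO and 181, 205 and 196 CPM in DKO/hA-I, overlapping and with a log2 difference of 0.13 (95% interval -0.10 to 0.365, edgeR adjusted p = 0.929). GENCODE places an opposite-strand transcript, 6530413G14Rik, over 137 exonic bases of Acp5; no source used here says whether the counting used strand.

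Ctsk (chromosome 3, 95499256 to 95509362, plus strand) encodes cathepsin K, the collagen-cleaving protease of the resorption space. It was 329, 45.7 and 382 CPM in DKO nodes 1, 2 and 3 and 14.6, 11.7 and 14.3 CPM in the DKO/hA-I nodes. No DKO node overlapped the DKO/hA-I nodes, but within DKO the highest library was 8.36-fold above the lowest, whereas the DKO/hA-I nodes lay within 1.24-fold of each other. The fitted log2 difference was 4.23 ± 0.717 (18.8-fold); DKO node 2 alone was 3.37-fold above the mean of the DKO/hA-I nodes and DKO nodes 1 and 3 were 24.3- and 28.2-fold above it. In spleen, DKO libraries held 7.725, 6.06 and 5.30 CPM and DKO/hA-I libraries 4.68, 5.00 and 4.65 CPM. Those did not overlap, yet the log2 difference of 0.40 (95% interval -0.06 to 0.86) did not pass the test (edgeR adjusted p = 0.929). In bulk tissue a higher level from more cells of a type and one from more RNA per cell cannot be told apart, for Ctsk and for every gene that follows.

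Of the 7 members, 2 (Ctsk and Atp6v0d2, both higher in DKO) passed an edgeR adjusted p under 0.05 in the nodes, where 6.87% of the 14012 genes tested passed and 3.95% were higher; since the members were picked with this comparison known, nothing is read from the 2. As a description of single libraries, both passed without DKO node 2, Atp6v0d2 alone passed without DKO node 1, and neither passed without DKO node 3 or any one DKO/hA-I node, although the log2 difference of Ctsk stayed between 3.79 and 4.72 and that of Atp6v0d2 between 3.26 and 4.21. Without DKO node 2 the members past the threshold were 4, with Acp5 (log2 difference 0.96) and Tnfrsf11a (0.99) added. Node groups did not overlap for 4 members, Ctsk, Atp6v0d2, Acp5 and Tnfsf11, and for 30.5% of all genes tested.

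In spleen 0 of the 7 members passed, where 0.00714% of 14009 genes did, and 0 had an unadjusted edgeR p under 0.05. DESeq2 and limma voom also called 0 of the 7, and so did the fit with the middle sample code as a block. Groups did not overlap for 1 member, Ctsk, against 10.6% of genes. Within spleens of one middle code, the log2 ratio of DKO to DKO/hA-I for Ctsk was 0.18 for code 55 (1 library of each genotype) and 0.33 for code 57 (1 DKO library against 2), and for Acp5 it was 0.23 and 0.21. For Atp6v0d2 both ratios were below 0 (-0.29 and -0.71), and for the other 4 members they differed in sign: 0.43 and -0.56 for Tnfsf11, 0.12 and -0.16 for Tnfrsf11a, 0.03 and -0.16 for Nfatc1, and -0.65 and 0.31 for Itgb3. DKO spleen 1 had a code of its own and could not be compared within it.

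The node genotype difference minus the spleen genotype difference was 4.03 ± 0.841 on the log2 scale for Atp6v0d2 and 3.81 ± 0.817 for Ctsk. Acp5 and Tnfrsf11a followed at 0.62 ± 0.229 and 0.75 ± 0.42, and Nfatc1 was nearest to 0 at -0.10 ± 0.231. These values share the node libraries the members were picked on and are descriptions; 2 of the 7, Atp6v0d2 and Ctsk, passed the threshold with the node difference the larger, against 3.33% of all genes in either direction and 2.04% in that one.

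**Figure D2:**
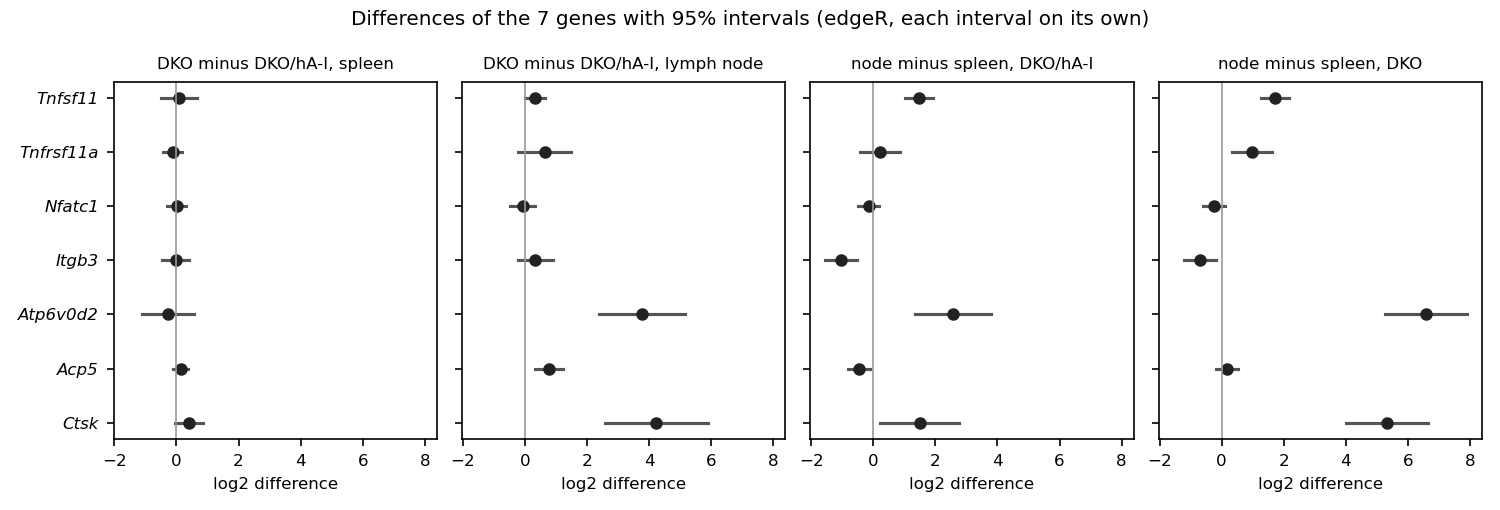
Log2 differences of the 7 genes with 95% intervals from edgeR in 4 comparisons: DKO minus DKO/hA-I in spleen and in lymph node, and lymph node minus spleen within each genotype. All 7 spleen intervals hold 0; in the nodes Ctsk (4.23) and Atp6v0d2 (3.77) lie apart from the other 5 genes, which lie between -0.07 and 0.77.

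Set against each other per length (RPKM, CPM divided by the summed exon length in kilobases), the members changed places between groups. In DKO/hA-I nodes Acp5 led at 69.4 ± 7.55 RPKM (SD, n = 3), followed by Nfatc1 at 23.3 ± 2.08, Itgb3 at 11.7 ± 1.82, Ctsk at 8.95 ± 1.03, Tnfsf11 at 6.50 ± 0.0823, Atp6v0d2 at 5.15 ± 0.843 and Tnfrsf11a at 4.13 ± 0.322. Only the last pair overlapped among neighbours in that order. In DKO nodes Ctsk had the highest mean, 167 ± 120 RPKM, before Acp5 at 118 ± 28.5 and Atp6v0d2 at 69.5 ± 46.5, with Nfatc1 at 21.9 ± 5.02 next. The ranges of Ctsk and Acp5 overlapped, and the order was not that of every library: Ctsk was 1.64 and 1.87 times Acp5 per length in DKO nodes 1 and 3 and 0.357 times in DKO node 2. In the DKO/hA-I nodes the same ratio was 0.121 to 0.145, and in all 6 spleens 0.0319 to 0.0526.

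In spleen Acp5 also led, with 105 ± 8.57 RPKM in DKO and 95.5 ± 5.91 in DKO/hA-I. Nfatc1 (26.2 ± 3.63 and 25.9 ± 2.88) and Itgb3 (23.9 ± 6.40 and 24.1 ± 2.56) came next and overlapped each other in both genotypes. The remaining 4 were at 4.21 RPKM or lower, and Atp6v0d2 was last at 0.726 ± 0.225 and 0.859 ± 0.389. Ctsk, Tnfrsf11a and Tnfsf11 thus lay close together in spleen, well below Acp5, Nfatc1 and Itgb3.

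Between tissues, the comparison the members were not picked on is that of DKO/hA-I nodes with DKO/hA-I spleens, although it shares those nodes with the genotype comparison. Tnfsf11 was higher in the nodes by 1.47 ± 0.205 on the log2 scale (2.78-fold, edgeR adjusted p = 0.000172), with 14.5 ± 0.184 CPM against 5.22 ± 0.968 (SD, n = 3 each), and its adjusted p over all alternatives was 4.73e-10 to 0.00143. Atp6v0d2 was higher in the nodes by 2.56 ± 0.569 (5.91-fold, edgeR adjusted p = 0.00474), and over the alternatives the adjusted p was 7.3e-05 to 0.0608, the last with limma voom. Itgb3 was lower in the nodes by 1.04 on the log2 scale (difference -1.04 ± 0.239, edgeR adjusted p = 0.00598, 0.00017 to 0.0268 over the alternatives), with 69.4 ± 10.8 CPM against 142 ± 15.1. Markers of megakaryocytes and platelets, which make Itgb3, were lower in these nodes in 7 of 8 tested (summed level 34.6 to 73.4 CPM against 282 to 391 CPM in the spleens); their part in the Itgb3 difference was not tested.

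Ctsk, at 13.5 ± 1.56 CPM in DKO/hA-I nodes and 4.77 ± 0.193 CPM in the spleens, did not overlap between them but missed the threshold (log2 difference 1.501 ± 0.586, 95% interval 0.23 to 2.77, edgeR adjusted p = 0.0803). Its adjusted p was 8.88e-05 when only those 6 libraries were fitted and 8.88e-05 to 0.304 over all alternatives; the fit of all 12 also takes its spread from the DKO libraries. Acp5 was lower in those nodes without passing (log2 difference -0.46 ± 0.162, edgeR adjusted p = 0.0541, 0.00806 to 0.178 over the alternatives). Tnfrsf11a (0.22, 95% interval -0.42 to 0.87, edgeR adjusted p = 0.651) and Nfatc1 (-0.15, 95% interval -0.51 to 0.20, edgeR adjusted p = 0.56) did not pass either. In all, 2 members were higher and 1 lower in the DKO/hA-I nodes, or 3 of 7 where 25.7% of 14608 genes passed, 11.8% higher and 14% lower.

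Within DKO mice the node levels are those the members were picked on, so the tissue differences there are descriptions. Atp6v0d2 was 6.59 ± 0.61 and Ctsk 5.32 ± 0.607 higher in node than in spleen on the log2 scale, Tnfsf11 1.72 ± 0.206, Tnfrsf11a 0.97 ± 0.299 and Acp5 0.16 ± 0.162. Itgb3 differed by -0.69 ± 0.237 and Nfatc1 by -0.25 ± 0.164. Past the threshold were 4 of 7, all higher in the node, where 22.8% of genes passed and 11.3% were higher. Of these 4, Tnfrsf11a missed it with limma voom, with the replicate block and when only those 6 libraries were fitted. Tnfrsf11a also missed it in 5 of the 6 fits that left out 1 library, and its node and spleen groups overlapped.

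Which other parts of the osteoclast programme were present was asked of 8 lists by role, 81 genes besides the members, 78 of them tested in the nodes. The lists were chosen with earlier results of these data known, so the shares and adjusted p-values of their genes in the nodes are descriptions. Between the nodes, 26 were higher in DKO and 0 lower. Thus 33.3% of those tested passed, against 6.87% of all genes. The median log2 difference was 0.73 against 0.01 over all genes. In spleen 0 of 74 tested passed with edgeR, with DESeq2 and with limma voom, 5 had an unadjusted edgeR p under 0.05, and the median difference was 0.08. The node count rests on few libraries: it was 7 without DKO node 1, 45 without DKO node 2, 2 without DKO node 3, and 1, 1 and 2 without DKO/hA-I nodes 1, 2 and 3. It was 41 with DESeq2, 15 with limma voom and 43 with all 12 libraries in one fit; every call in each of these was higher in DKO.

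**Figure D3:**
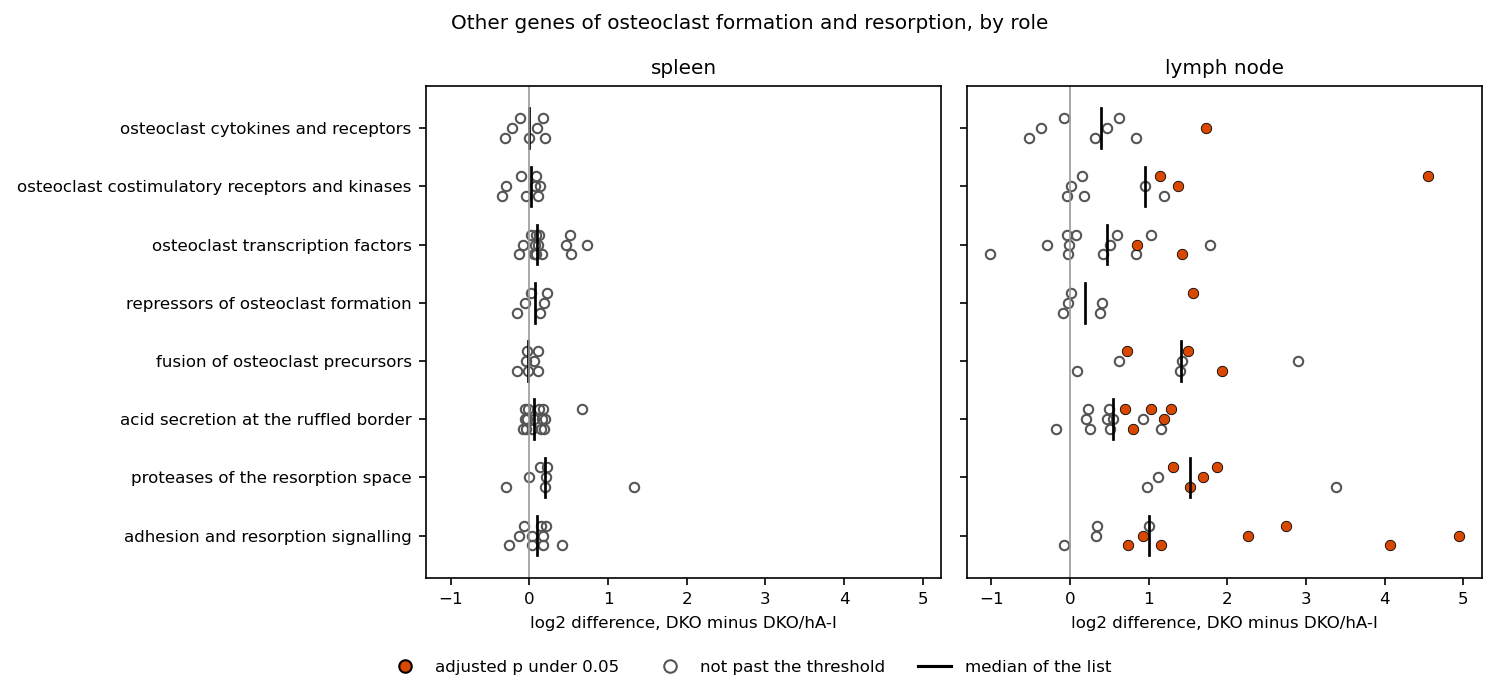
Log2 differences, DKO minus DKO/hA-I, of the other osteoclast genes by role, in spleen and in lymph node; each point is a gene, filled where the edgeR adjusted p was under 0.05, and a bar marks the median of the list. None of the 74 spleen points is filled, and 26 of the 78 node points are, all to the right of 0.

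Among cytokines and receptors, 1 of 8 tested passed in the nodes. Il34, which like Csf1 acts on the receptor Csf1r that precursors need to survive, was 12.9, 7.75 and 17.2 CPM in DKO nodes and 2.88, 4.25 and 4.51 CPM in DKO/hA-I nodes (log2 difference 1.73 ± 0.332, edgeR adjusted p = 0.0285). Csf1 itself (103 against 135 CPM on average, log2 difference -0.37 ± 0.167) and Csf1r (495 against 361 CPM, 0.47 ± 0.17) did not pass. Tnfrsf11b (osteoprotegerin), the decoy that keeps Tnfsf11 from its receptor, was near the limit of detection in every node, at 0.215 to 1.21 CPM.

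Of the costimulatory receptors and kinases, 3 of 9 tested were higher in DKO nodes. Trem2, an adaptor-coupled lipid receptor of macrophages, was 116, 21.8 and 170 CPM in DKO nodes against 3.99, 4.25 and 5.05 CPM (log2 difference 4.55 ± 0.706, edgeR adjusted p = 0.017). Its adaptor Tyrobp (DAP12) differed by 1.38 ± 0.286 (edgeR adjusted p = 0.034) and Fcer1g, the adaptor of Oscar and Pira2, by 1.15 ± 0.24 (edgeR adjusted p = 0.0347). The kinases downstream, Syk, Btk and Tec, and the lipase Plcg2 did not pass, with log2 differences of -0.04 to 0.18.

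Transcription factors passed in 2 of 14 cases. Mitf, which acts with Nfatc1 on Acp5 and Ctsk in mouse osteoclasts, was 36.8, 28.3 and 57.8 CPM against 15.5, 13.4 and 17.4 CPM (log2 difference 1.43 ± 0.266, edgeR adjusted p = 0.026). Its relative Tfec was higher by 0.85 ± 0.191 (edgeR adjusted p = 0.0416), and neither of these groups overlapped. The NF-kappaB genes Nfkb1, Nfkb2 and Relb lay between -0.04 and 0.07 and did not pass, and Fos, at 22.4 against 45.8 CPM on average, did not pass either (log2 difference -1.01, 95% interval -3.28 to 1.26). Irf8, a repressor of osteoclast formation, was at 435 against 434 CPM.

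For the fusion of precursors, 3 of 8 tested were higher: the signal-regulatory receptor Sirpa by 1.501 ± 0.257 (edgeR adjusted p = 0.021), and the tetraspanins Cd81 by 0.72 ± 0.139 (edgeR adjusted p = 0.0288) and Cd9 by 1.93 ± 0.395 (edgeR adjusted p = 0.0334). Sirpa stood at 831, 558 and 1075 CPM in DKO nodes against 362, 256 and 261 CPM. These 3 are made by many macrophages. Dcstamp and Ocstamp, receptors that act in the fusion of osteoclasts and giant cells, did not pass.

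For acid secretion, 5 of 15 tested were higher in DKO nodes. Atp6v1a and Atp6v1b2, subunits of the cytosolic part of the proton pump that every cell uses in its lysosomes, differed by 1.29 ± 0.262 (edgeR adjusted p = 0.0324) and 1.20 ± 0.272 (edgeR adjusted p = 0.0428), and Tcirg1, the a3 subunit that osteoclasts place in the ruffled border, by 1.03 ± 0.227 (edgeR adjusted p = 0.0393). Tcirg1 was 381, 225 and 397 CPM against 191, 151 and 152 CPM, so its groups differed by far less than those of Atp6v0d2. Car2, the carbonic anhydrase that supplies the protons in osteoclasts, was 17.4 CPM on average in DKO and 20.1 CPM in DKO/hA-I nodes (log2 difference -0.18 ± 0.335) and did not pass.

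Proteases of the resorption space were higher in 4 of 7 tested. Mmp9, the gelatinase of osteoclasts and neutrophils, was 35.6, 59.7 and 44.3 CPM in DKO nodes and 15.7, 14.5 and 7.85 CPM in DKO/hA-I nodes, with DKO node 2 the highest here (log2 difference 1.88 ± 0.294, edgeR adjusted p = 0.017). Mmp14 differed by 1.31 ± 0.238 (edgeR adjusted p = 0.0246), and the lysosomal protease Ctsd, at 3554, 1676 and 4016 CPM against 1166, 934 and 787 CPM, by 1.69 ± 0.325 (edgeR adjusted p = 0.0288). Of 11 adhesion and resorption signalling genes tested, 7 were higher, among them the matrix protein Spp1 (osteopontin; 158, 108 and 340 CPM against 9.38, 5.78 and 4.73 CPM, log2 difference 4.94 ± 0.501, edgeR adjusted p = 0.00756), its receptor Cd44 (0.93 ± 0.151, edgeR adjusted p = 0.0177) and the integrin subunit Itgb5 (2.27 ± 0.37, edgeR adjusted p = 0.0185). Itgb5 pairs with the same alpha chain as Itgb3, which did not pass.

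The 6 genes listed as markers of mature osteoclasts were also read one by one, as counts. Calcr (the calcitonin receptor) had 0 counts in all 3 DKO nodes and Oscar 1, 3 and 2 counts. Siglec15 had 6, 0 and 8 counts in DKO nodes and 0 in each DKO/hA-I node. These 3 were left out of the fit by its filter on low counts, in libraries where 3 counts were worth 0.265 to 0.506 CPM. Dcstamp had 288, 9 and 361 counts (25.9, 1.52 and 31.8 CPM) in DKO nodes and 22, 31 and 31 counts (2.04, 2.80 and 3.33 CPM) in DKO/hA-I nodes, so that DKO node 2 was the lowest of all 6 and the difference did not pass (log2 difference 2.90 ± 0.847, edgeR adjusted p = 0.0854). Ocstamp had 35, 7 and 38 counts against 14, 10 and 7 (1.42 ± 0.442, edgeR adjusted p = 0.0964). Mmp9, given above and also made by neutrophils, was the one of the 6 that passed. Neutrophil markers summed to 1050 CPM in DKO node 2, where Mmp9 was highest, and to 183 and 372 CPM in DKO nodes 1 and 3. Their part in the Mmp9 difference was not tested.

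**Figure D4:**
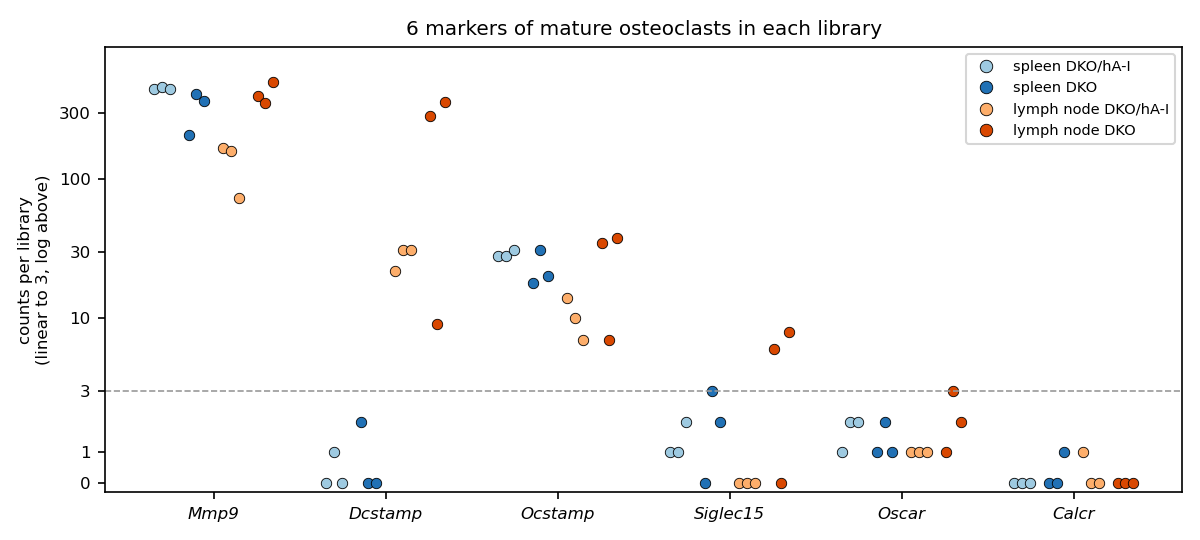
Counts of 6 markers of mature osteoclasts in each library, by group, on an axis that is linear up to 3 counts (dashed line) and logarithmic above. Dcstamp reaches 288 and 361 counts in DKO nodes 1 and 3 but 9 in DKO node 2, and Calcr and Oscar have at most 3 counts in any library.

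In the spleens Dcstamp had 0 to 2 counts a library, Ocstamp 18 to 31 and Mmp9 209 to 462. The Dcstamp reads of the nodes were thus nearly absent from spleen in both genotypes; DKO/hA-I nodes differed from DKO/hA-I spleens (edgeR adjusted p = 0.00972), with 84 counts in all against 1. Of 9 osteoblast and bone matrix markers, Ibsp, Bglap2 and Sp7 had 0 counts in all 6 nodes, and Bglap, the gene of osteocalcin, had at most 2. Runx2 and Alpl, which lymphocytes and stroma also make, did not pass in either tissue.

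In the comparison of DKO/hA-I nodes with DKO/hA-I spleens, 5 of 78 tested pathway genes were higher in the nodes and 16 lower, or 26.9% where 25.7% of all genes passed. The 5 were Tec, Spp1, Dcstamp, Adam12 (log2 difference 2.91 ± 0.302, edgeR adjusted p = 1.56e-05), a metalloprotease linked to cell fusion, and the lysosomal protease Ctsl (1.40 ± 0.215, edgeR adjusted p = 0.000374). Lower in the nodes were Csf1r (361 against 842 CPM on average, difference -1.22 ± 0.14, edgeR adjusted p = 3.56e-05), Il34 (-2.29 ± 0.263, edgeR adjusted p = 3.72e-05) and Car2 (20.1 against 601 CPM, -4.90 ± 0.464, edgeR adjusted p = 7.31e-06), which red cell precursors, found in mouse spleen, also make. With only the 6 libraries compared in the fit, 33 passed, 9 higher and 24 lower.

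Markers of other cells moved with the node differences. Of 12 general macrophage markers, 1 of which (Csf1r) is also in the pathway lists, 7 were higher in DKO nodes and 0 lower; their summed level was 6389 to 10540 CPM in DKO and 3649 to 4594 CPM in DKO/hA-I nodes. Of 12 markers of lipid-laden macrophages, 3 of which (Cd9, Spp1 and Trem2) are also in the pathway lists, 9 were higher, with a summed level of 8075 and 11140 CPM in DKO nodes 1 and 3, 2388 CPM in DKO node 2 and 1246 to 1674 CPM in DKO/hA-I nodes. Gpnmb, a lysosomal glycoprotein of such cells, averaged 1530 CPM in DKO and 69.9 CPM in DKO/hA-I nodes (edgeR adjusted p = 0.0154). None of the markers on either list was at 0 in a DKO node.

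Fibroblast markers were higher in 3 of 9 (1468 to 2741 against 871 to 1013 CPM) and neutrophil markers in 1 of 6 (183 to 1050 against 106 to 208 CPM), reticular stroma markers in 3 of 9 (1232 to 1753 against 1189 to 1357 CPM), and adipocyte markers were lower in 7 of 8 (67.1 to 81.2 against 299 to 1144 CPM). Monocyte and dendritic cell markers were lower in 1 of 6 and 1 of 7, and sinus macrophage markers in 2 of 5. T cell and B cell markers passed in 0 of 7 each, with medians of -0.52 and -0.47. The part of these cells in the differences of the members was not tested.

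**Figure D5:**
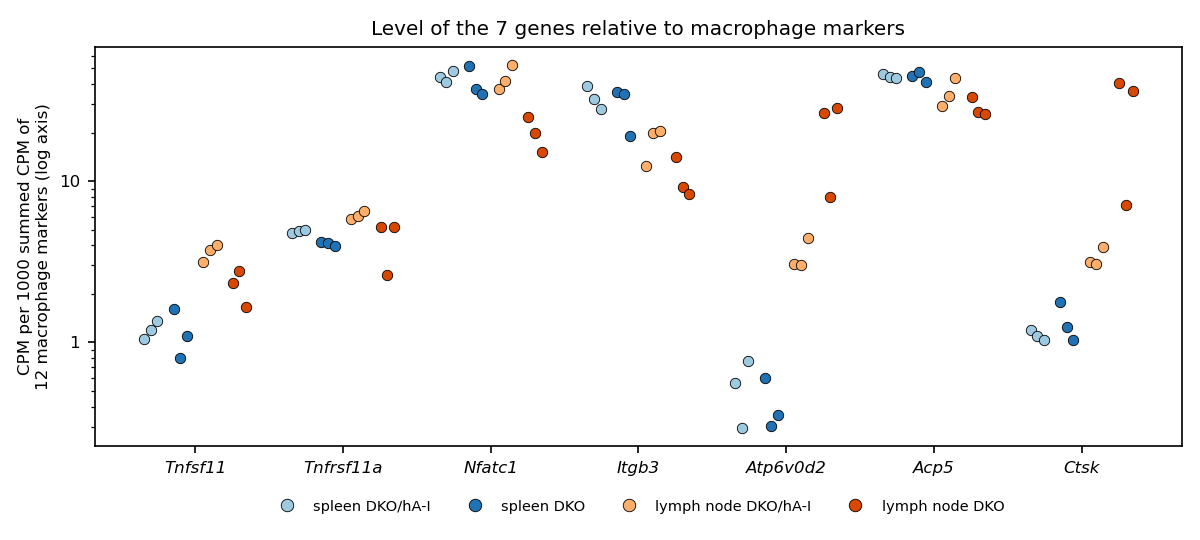
CPM of each of the 7 genes per 1000 summed CPM of 12 macrophage markers in each library, on a log axis, by group. Ctsk and Atp6v0d2 are above the DKO/hA-I nodes in all 3 DKO nodes (7.15 to 40.5 and 8.02 to 28.4), while Nfatc1, at 15.2 to 25.0, is below them.

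Per 1000 summed CPM of the 12 macrophage markers, Ctsk was 40.5, 7.15 and 36.2 in DKO nodes and 3.17, 3.05 and 3.92 in DKO/hA-I nodes, and Atp6v0d2 was 26.6, 8.02 and 28.4 against 3.07, 3.03 and 4.45. Both were thus higher in every DKO node on this scale too. Acp5, at 33.2, 26.9 and 26.0 against 29.4, 33.6 and 43.4, overlapped, and Nfatc1, at 25.0, 20.0 and 15.2 against 37.1, 41.7 and 52.4, was lower in every DKO node. Tnfrsf11a was 5.22, 2.61 and 5.23 against 5.86, 6.06 and 6.57, lower in every DKO node, and Itgb3 overlapped. Tnfsf11, whose CPM was higher in every DKO node, was lower in every DKO node on this scale (2.34, 2.77 and 1.66 against 3.15, 3.73 and 4.04). In spleen Ctsk was 1.04 to 1.77 and Atp6v0d2 0.293 to 0.770 on the same scale, below all 6 nodes. These ratios are descriptions without a test, and they set total level against total level without showing which cells made the RNA.

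Among the genes most like Ctsk across the 12 libraries, by Pearson correlation of log2 CPM among 12483 genes of at least 5 CPM in one group, were Atf3 (r = 0.993), Mamdc2 (0.991), Cd63 (0.991), Cstb (0.984) and Igf2r (0.982). Atf3, a stress-induced transcription factor, averaged 90.2 ± 65.4 CPM in the DKO nodes against 11.1 ± 2.23 CPM with the human transgene, and Mamdc2 41.7 ± 29.8 and 2.46 ± 0.266 CPM (SD, n = 3). Cd63, Cstb and Igf2r encode proteins of the lysosome or its traffic, or an inhibitor of cathepsins. Among the members, r with Ctsk was 0.966 for Atp6v0d2, 0.818 for Tnfrsf11a, 0.785 for Tnfsf11, 0.456 for Acp5, -0.28 for Nfatc1 and -0.37 for Itgb3. Acp5 had other nearest genes: Hic1 (0.971), Ckb (0.965), Ftl1 (0.961), Smpdl3a (0.957), Dnase2a (0.952) and Slc24a6 (0.943). Ckb, the brain-type creatine kinase that osteoclasts use, averaged 179 ± 111 CPM in DKO nodes, 27.0 ± 2.47 in DKO/hA-I nodes, 88.5 ± 20.6 in DKO spleens and 76.2 ± 16.2 in DKO/hA-I spleens. The 12 points come from 4 groups and share libraries across genes, so these values only rank patterns.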

How the data were processed

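Poly(A) RNA of spleen and axillary lymph node was sequenced on an Illumina Genome Analyzer IIx, per the labels. The values used are raw counts per gene that the authors deposited, 1 table a tissue; the submitters' processing notes name Trimmomatic, Bowtie, TopHat, Cuffdiff and the builds GRCm38 and mm10, without versions. The counter, its annotation and its use of strand are not given in the sources used. The tables' other columns were not used.

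Each tissue's 6 libraries were fitted for genotype, and all 12 for tissue and for the interaction, with edgeR 4.0.16 (quasi-likelihood, robust, TMM, filterByExpr with minimum counts of 10 and 15) in R 4.3.3; p-values were adjusted (Benjamini-Hochberg) over all genes tested and called under 0.05. SE is the difference divided by the root of F, and intervals are at 95%. CPM are on the TMM scale of all 12 libraries; RPKM use GENCODE vM21 exon lengths, GRCm38. Intervals and the floor of 3 counts cover counting or library spread only. The labels do not say that replicates are separate animals beyond their codes, so p-values cover the spread among these libraries alone. Alternatives were RLE scaling, no filter, DESeq2 1.42.0, limma voom (limma 3.58.1), a replicate block, a code block (spleen), other sets of libraries and each library left out. The fits were checked on simulated counts.

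All 7 members were named; of each pathway or marker list, up to 3 called genes of lowest adjusted p, or else up to 2 of highest mean CPM, with osteoclast markers named whatever their value; further genes named from these lists were chosen after their values were seen. For likeness, the 6 genes of highest correlation were taken. Some results that these rules select are not reported here. The members and lists were chosen with earlier results of these data known.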

Additional observations from a re-analysis of the deposited data

Results flagged for a closer look

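An interaction term fitted over all 12 libraries passed (edgeR adjusted p under 0.05) for 2 members and 13 other named genes of osteoclast formation and resorption. Of the pathway genes 14 of 78 tested passed (17.9%), and of all genes 487 of 14608 (3.33%). The members were picked with the node genotype difference known, which this term contains, and the other genes were listed with it known, so the values are descriptions and support nothing. Each value is the log2 difference of DKO and DKO/hA-I in lymph node minus that in spleen. Among the members it was 4.027 for Atp6v0d2 and 3.814 for Ctsk. Receptors and the cytokine followed, with 4.614 for Trem2, 1.833 for Il34 and 1.498 for Sirpa. Adhesion and resorption signalling genes had 4.494 for Spp1, 2.099 for Itgb5 and 0.8707 for Cd44, and the tetraspanin Cd9 of the fusion list had 1.948. Proteases had 2.153 for Mmp9, 1.466 for Ctsd and 1.151 for Mmp14. The proton pump subunits had 1.281 for Atp6v1a and 1.235 for Atp6v1b2, and the transcription factor Mitf had 1.544. Nodes and spleens came from different animals, so tissue and animal cannot be told apart in these values. The calls of Ctsk and Atp6v0d2 were lost in 8 of the 12 fits that left out 1 library, namely those without DKO node 3, without DKO/hA-I node 2 and without any one of the 6 spleens.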

How the results depend on the processing

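Counts of calls moved most. In spleen, 1 gene was called; DESeq2 called 5 and the code block 515, 2 of them pathway genes, and 1 to 167 were called (0 to 1 pathway genes) with 1 library left out. In the nodes 962 were called; DESeq2 called 1967 (41 pathway genes), the fit of all 12 libraries 2253 (43), limma voom 15 pathway genes, and leaving out 1 library 115 to 2245 (1 to 45). With only the 6 libraries compared, 33 pathway genes passed between tissues in DKO/hA-I and 2204 genes in DKO (3325 in the fit of all 12). For the interaction 487 were called, 973 with DESeq2, 253 with limma voom and 179 to 1160 with 1 library left out; Ctsk and Atp6v0d2 missed the threshold there without the count filter and with limma voom. The causes were not tested.

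The replicate numbers of the titles do not pair the samples: same-numbered libraries correlated at -0.141 to 0.108 in their deviations from the group mean. With the replicate block 438 node genes (11 pathway genes) and 299 interaction genes passed, and Ctsk and Atp6v0d2 were kept in both; in DKO Tnfrsf11a missed the tissue threshold.

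Directions changed for members near 0 in spleen: with the code block Tnfsf11 was -0.13 and Nfatc1 -0.091; within code 55 Tnfrsf11a was 0.12; within code 57 Tnfsf11 was -0.56, Nfatc1 -0.16 and Itgb3 0.31. Leaving out 1 spleen gave -0.15 to 0.28 for Tnfsf11, -0.12 to 0.092 for Nfatc1, -0.17 to 0.18 for Itgb3 and -0.54 to 0.12 for Atp6v0d2. Nfatc1 ranged from -0.29 to 0.072 in the nodes and -0.27 to 0.043 in the interaction. Depth limits the genes of a few counts (Calcr, Oscar, Siglec15), which the count filter left out of the fits reported.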
